A study of Homo sapiens with 4 samples.

Results

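The genes described are developmental transcription factors outside the HOX clusters. They are all gene symbols of the TBX, PAX, SOX, sine oculis (SIX4 and its relatives), DLX, LHX, MSX, GATA and IRX families, and of the forkhead groups FOXA to FOXS, taken by name alone. FOXM1, a cell-cycle factor, was left out. The rule found 119 members among 26364 symbols: 13 TBX, 9 PAX, 19 SOX, 6 sine oculis, 6 DLX, 8 LHX, 2 MSX, 6 GATA, 6 IRX and 44 FOX genes. The name rule uses no measured value, but it was chosen with earlier results of these data known.

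Messenger RNA was sequenced from NCI-H460, an established human line of non-small cell lung cancer. The cells received a single gamma dose and were then kept for 48 h in either 2 uM DZNep or its solvent DMSO. This gave 4 groups with 1 library each: DZNep after 4 Gy, DZNep without irradiation (0 Gy), DMSO after 4 Gy, and DMSO without irradiation (0 Gy). No gene was altered in any group, and all cells are of 1 line in culture. With 1 library per group there is no replicate of any single condition, and nothing in the labels says whether the cultures were handled independently. In a bulk library, fewer cells of a type and less RNA per cell cannot be told apart.

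These families hold much of the machinery by which an embryo assigns cell fate. T-box, paired-box, SOX, homeodomain (sine oculis, DLX, LHX, MSX, IRX), GATA and forkhead proteins each bind their own short DNA sequences and switch on the genes of a tissue or a body segment. In cells of other lineages many of their genes are kept off by Polycomb, whose EZH2 subunit methylates histone H3 at lysine 27, mostly over promoters rich in CpG. DZNep (3-deazaneplanocin A) blocks S-adenosylhomocysteine hydrolase. The by-product of methylation then builds up and slows many methyltransferases, EZH2 among them, so the families are a natural place to look for transcripts that come back under the drug. Histone marks were not measured here.

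The libraries held 116234177 counts for DZNep 4 Gy, 128255695 for DZNep 0 Gy, 112461380 for DMSO 4 Gy and 136594350 for DMSO 0 Gy. Levels are in CPM, counts set against each library's total and adjusted by the trimmed mean of M-values (TMM), and a level of 3 counts, the limit that a count of 0 allows, lay between 0.0217 and 0.0267 CPM. The line's markers were partly those of an epithelium: KRT8, KRT18 and KRT19 made up nearly all of the epithelial list, which summed to 4296 and 3885 CPM in the DZNep libraries (4 Gy, then 0 Gy), against 1764 and 1496 CPM in the DMSO libraries, while EPCAM and CDH1 stayed under 0.5 CPM. The lung lineage list (NKX2-1, SFTPB, SFTPC, NAPSA) summed to 0.360 and 0.108 CPM with DZNep and to 0.133 and 0.0650 CPM with DMSO. Lists for blood and endothelium stayed under 1 CPM in sum. The fibroblast list summed to 29.0 and 22.7 CPM with DZNep and to 37.3 and 27.9 CPM with DMSO. The part of these marker shifts in the results that follow was not tested.

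Taken as a set, the families were a small share of the RNA, and at each dose the share was larger with DZNep. They held 0.132% of counts in DZNep 4 Gy and 0.120% in DZNep 0 Gy, against 0.124% in DMSO 4 Gy and 0.0941% in DMSO 0 Gy. At 10 CPM or more there were 32 and 31 members in the DZNep libraries (4 Gy, then 0 Gy) and 28 and 22 in the DMSO libraries. Of the 119 members, 110 had at least 1 count somewhere and 9 had none: FOXB2, FOXI1, FOXJ1, FOXR1, FOXR2, LHX8, PAX4, SOX14 and SOX17. Per kilobase of exon the most abundant members were SOX9 (mean of 32.0 CPM per kb over the 4 libraries), FOXP4 (21.4), FOXA1 (14.5), GATA2 (11.5), FOXJ3 (11.4) and MSX2 (10.5). The median over tested members was 1.94 CPM per kb, so most of the families stood far below these few.

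Across both doses DZNep raised far more members than it lowered. The test was edgeR's quasi-likelihood test with a term for the drug and a term for the dose, fitted to all 4 libraries, with Benjamini-Hochberg adjustment over 13378 genes that reached 1 CPM in at least 2 libraries. In it, 62 of the 119 members could be tested. DZNep raised 19 of the 62 (30.6%), where 10.8% of all tested genes were raised, and lowered 2 (3.23%), where 12.3% of all tested genes were lowered. The other 41 did not pass. Effects and their standard errors (SE) are on the log2 scale, DZNep over DMSO. Each SE was worked back as the size of the effect divided by the square root of the test's F statistic. It is not a spread between replicates. The median DZNep effect was 0.43 on the log2 scale over the 62 members and -0.02 over all tested genes, and 50 of the 62 were positive. Both DZNep libraries stood above both DMSO libraries for 37 of the 62, where 26.3% of all tested genes did, and below both for 7, where 27.8% did. The 57 untested members were too low to enter the test, so these shares describe the expressed end of the families. The filter itself let in 4 members that reached 1 CPM in both DZNep libraries and no DMSO library (FOXH1, GATA3, IRX4 and PAX5) and 1 member in the opposite position. These had to differ between the arms to be tested. The fit rests on 1 residual degree of freedom, so a gene whose drug response differs with dose counts as noisy. That spread is drawn toward the spread of other genes, with a weight of 11.5 prior degrees of freedom, so such a gene can still pass. With dose left out of the model 5 members were raised and none lowered, against 18 and 2 with DESeq2. Of all tested genes, 2.65% were raised and 2.74% lowered with dose left out, against 9.96% and 10.3% with DESeq2. With 1 library also left out, 1 arm held a single library, so no count of calls is given. The raised calls, of members and of all tested genes alike, then varied with the library left out. The lowered calls of members were lost.

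**Figure D1:**
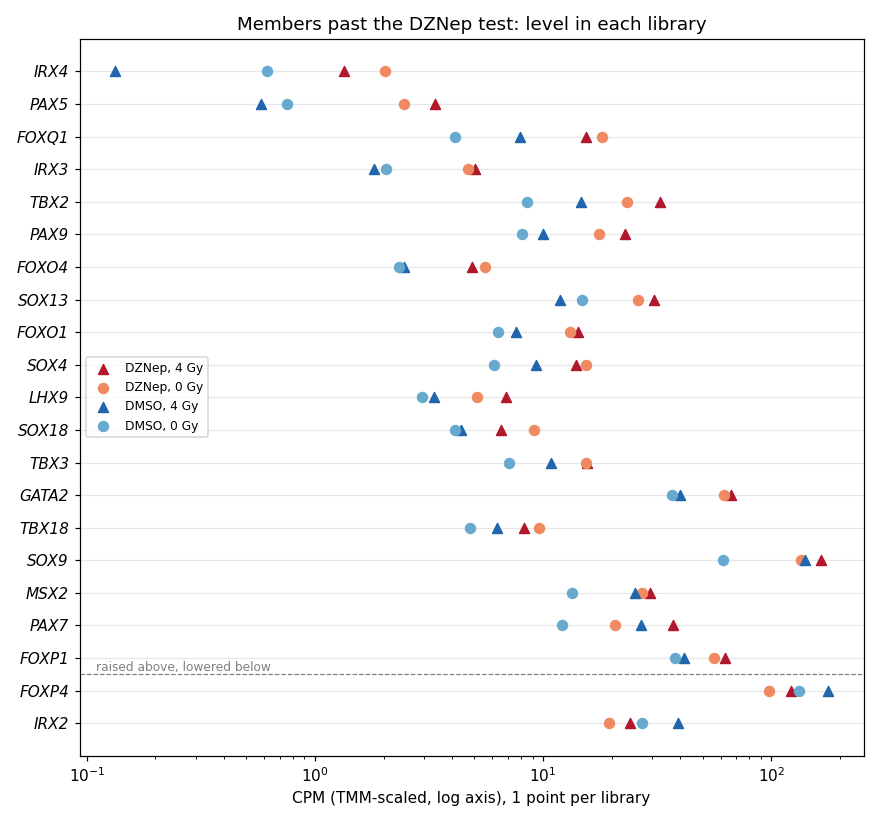
Level of each of the 21 members past the DZNep test, in CPM on a log axis, with 1 point per library and no error bar, since each group is 1 library. The 19 raised members are above the dashed line in order of effect, and FOXP4 and IRX2, the 2 lowered members, are below it. SOX9 and PAX7 are raised members in which the DZNep 0 Gy point lies left of the DMSO 4 Gy point.

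**Figure D2:**
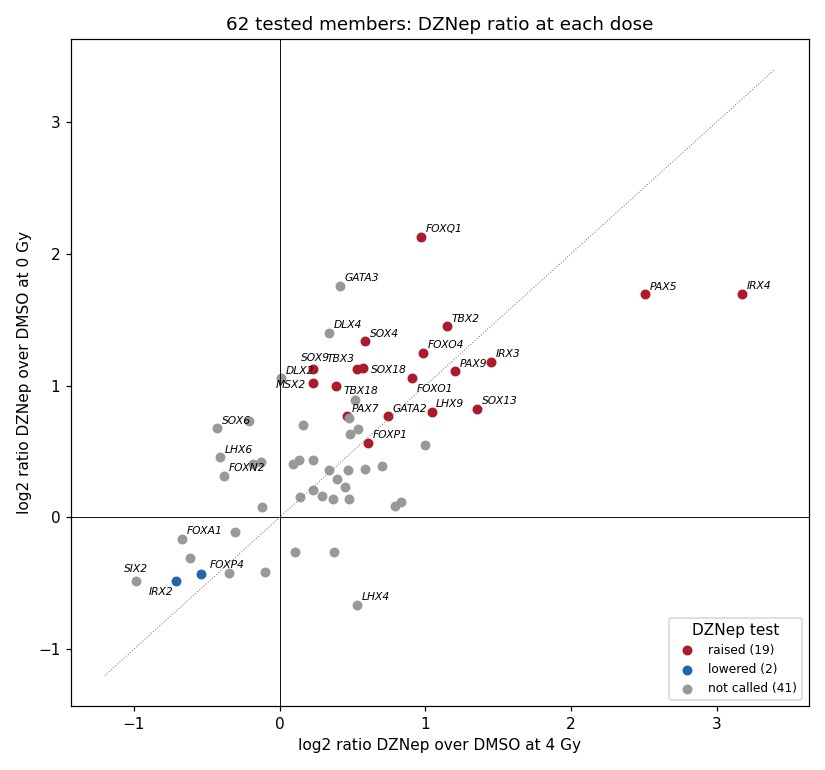
DZNep over DMSO log2 ratio of the 62 tested members at 4 Gy (horizontal) and at 0 Gy (vertical), 1 point per gene, coloured by the DZNep test, with the dotted line marking equal ratios. Of the 19 raised members, 12 lie above the line, with the larger ratio at 0 Gy, and the 2 lowered members are negative at both doses.

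All 21 called members had the same sign at 4 Gy and at 0 Gy, as the plot of the ratios at each dose shows. The additive test on the same libraries favours such members, so the shared sign is not independent support. The ratios given for single doses compare 2 libraries, so they carry no test. Their 95% intervals, in brackets, cover counting error only and may be too narrow if the mates of a read pair were counted separately. Among the 19 raised members, 12 had their larger DZNep ratio without irradiation.

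In the TBX family 3 of 4 tested members were raised and the fourth, TBX1, was short of the threshold. The T-box genes T (brachyury) and EOMES, which the name rule leaves out, did not pass. T had 1617 and 1214 CPM with DZNep (4 Gy, then 0 Gy) and 1979 and 1471 CPM with DMSO (effect -0.28, SE 0.13, adjusted p = 0.122), and EOMES had an effect of 0.06 (SE 0.27, adjusted p = 0.896). TBX2, a repressor that restrains senescence and shapes limb and heart, stood at 32.5 CPM in DZNep 4 Gy and 23.2 in DZNep 0 Gy, against 14.6 in DMSO 4 Gy and 8.50 in DMSO 0 Gy. Both DZNep libraries lay well above both DMSO libraries, and TBX2 rose by 1.30 on the log2 scale (SE 0.18, adjusted p = 0.000312), the smallest adjusted p among the members. TBX3, its close relative with roles in limb and mammary development, had 15.6 and 15.4 CPM with DZNep (4 Gy, then 0 Gy) and 10.8 and 7.07 CPM with DMSO. It rose by 0.83 (SE 0.20, adjusted p = 0.0117), with the DZNep levels nearly equal and the DMSO levels apart. TBX18, a factor of the sinus node and ureter mesenchyme, had 8.27 and 9.60 CPM with DZNep and 6.31 and 4.80 CPM with DMSO. Its rise of 0.70 was the least secure of the family (SE 0.23, adjusted p = 0.0437, and 0.0563 with DESeq2). TBX19, the pituitary T-box factor, was too low for the test and ran the other way, with 21 and 27 counts with DZNep and 41 and 116 counts with DMSO. Of the other members 7 were near silence. One of them, TBX4, the neighbour of TBX2 on chromosome 17, had 12 and 9 counts with DZNep and 7 and 9 counts with DMSO.

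In the PAX family 3 of 7 tested members rose and none was called lower by edgeR or DESeq2 (1 at an unadjusted p under 0.05 by edgeR). PAX9, which patterns pharyngeal pouches, teeth and vertebrae, had 23.0 CPM in DZNep 4 Gy and 17.5 in DZNep 0 Gy, against 9.95 in DMSO 4 Gy and 8.12 in DMSO 0 Gy. The gain was almost the same at 4 Gy (1.21 on the log2 scale) and at 0 Gy (1.11), and the effect was 1.16 (SE 0.18, adjusted p = 0.000796). SLC25A21 overlaps PAX9 on the opposite strand, and without knowledge of strand use in the counting, their reads cannot be told apart. Where it was counted on its own, SLC25A21 had 1.93 and 1.48 CPM with DZNep and 2.31 and 1.81 CPM with DMSO.

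The start region of PAX9 is shown here as that of the most evenly raised member of its family. The window runs from 250 bases before to 50 bases after the start in the RefSeq table (GRCh38.p14, chr14:36657318-36657617, plus strand), with CG in capitals. It holds 19 CpG dinucleotides at a GC content of 51.0%, an observed over expected CpG ratio of 0.993. The medians over all 16182 such windows are 21 CpG, 62.3% and 0.747, so only the ratio is above its median.
PAX9: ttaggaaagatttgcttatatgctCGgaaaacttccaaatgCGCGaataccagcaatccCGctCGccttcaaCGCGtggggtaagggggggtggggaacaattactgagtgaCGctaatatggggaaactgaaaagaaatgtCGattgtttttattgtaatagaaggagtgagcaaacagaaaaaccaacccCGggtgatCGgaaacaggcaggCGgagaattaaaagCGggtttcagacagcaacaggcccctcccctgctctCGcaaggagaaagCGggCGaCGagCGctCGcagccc

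PAX5, the factor that commits B cells, was raised further but from a lower level. Its values were 3.37 and 2.46 CPM with DZNep (4 Gy, then 0 Gy) and 0.578 and 0.751 CPM with DMSO, so it passed 1 CPM only in the DZNep libraries. The effect was 2.12 (SE 0.35, adjusted p = 0.00113). PAX7, the satellite cell factor of muscle, had 37.2 and 20.6 CPM with DZNep and 27.0 and 12.1 CPM with DMSO. It rose by 0.61 (SE 0.17, adjusted p = 0.0224) although the drug groups overlapped, with the 4 Gy library the higher one in each arm. PAX6, the eye and neural factor and the member of the family with the highest mean CPM before any allowance for length, did not pass, with 58.1 and 58.1 CPM with DZNep and 45.1 and 52.8 CPM with DMSO (effect 0.25, SE 0.16, adjusted p = 0.278). PAX2, a kidney factor under the test's floor, had opposite differences at the doses, with 12 and 64 counts with DZNep and 45 and 16 counts with DMSO.

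SOX genes rose in 4 of 7 tested members, and none was called lower by edgeR or DESeq2 (1 at an unadjusted p under 0.05 by edgeR). SOX13, a SOXD factor of lymphoid and neural cells, had 30.5 and 26.1 CPM with DZNep and 11.9 and 14.8 CPM with DMSO. It rose by 1.09 (SE 0.19, adjusted p = 0.00148) with both DZNep libraries far above both DMSO libraries. SOX4, a SOXC factor of progenitors and many carcinomas, had 14.0 and 15.4 CPM with DZNep and 9.31 and 6.10 CPM with DMSO, a rise of 0.96 (SE 0.22, adjusted p = 0.00721). SOX18, which acts in endothelial and lymphatic cells, had 6.54 and 9.09 CPM with DZNep and 4.39 and 4.13 CPM with DMSO, a rise of 0.86 (SE 0.24, adjusted p = 0.0217). The endothelial marker list beside it summed to 0.651 and 0.943 CPM with DZNep and to 0.258 and 0.246 CPM with DMSO, and its part in the SOX18 result was not tested.

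SOX9, a master factor of cartilage and a progenitor factor of the distal lung bud, was the most abundant member per kilobase. It stood at 166 CPM in DZNep 4 Gy and 135 in DZNep 0 Gy, against 141 in DMSO 4 Gy and 61.6 in DMSO 0 Gy. The DMSO 0 Gy library was the low one and the other 3 lay together, so the DZNep ratio was 0.23 at 4 Gy and 1.13 at 0 Gy. The effect over both doses was 0.68 (SE 0.20, adjusted p = 0.0264). SOX2, the stem cell and airway factor, was near silence in every library with 8 and 6 counts with DZNep and 5 and 6 counts with DMSO.

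Among GATA genes GATA2 held nearly all of the family's counts. This factor of blood stem cells, also studied in lung cancer, had 66.9 and 62.3 CPM with DZNep (4 Gy, then 0 Gy) and 39.9 and 36.6 CPM with DMSO. The 2 doses gave near-equal ratios, 0.75 at 4 Gy and 0.77 at 0 Gy, and it rose by 0.76 (SE 0.16, adjusted p = 0.00452), 1 of 3 tested members to do so. GATA6, of heart, gut and lung, did not pass, with 3.31 and 2.83 CPM with DZNep and 2.36 and 1.81 CPM with DMSO (effect 0.56, SE 0.29, adjusted p = 0.185). GATA4 and GATA5, also of heart and gut, were under the test's floor. GATA4 had 0 and 6 counts with DZNep and 28 and 13 counts with DMSO. GATA5 had 29 and 50 counts with DZNep and 77 and 48 counts with DMSO, lower at 4 Gy (-1.37 on the log2 scale [-2.10, -0.79]) and not distinguishable from no change at 0 Gy (0.15 [-0.45, 0.76]).

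Among the tested members, Iroquois genes held the largest rise and 1 of the 2 falls. IRX4, a factor of the heart ventricle, had 1.34 CPM in DZNep 4 Gy and 2.02 in DZNep 0 Gy, against 0.133 in DMSO 4 Gy and 0.614 in DMSO 0 Gy. These rest on 152, 262, 15 and 85 counts. Only the DZNep libraries passed 1 CPM, so IRX4 had to differ between the arms to be tested. The DMSO 4 Gy library was the lowest, so the ratio was 3.18 [2.56, 4.20] at 4 Gy and 1.69 [1.36, 2.09] at 0 Gy, and the effect was 2.40 (SE 0.43, adjusted p = 0.00199). IRX3, a factor of neural and limb patterning, rose by 1.32 (SE 0.28, adjusted p = 0.00492), with 5.01 and 4.67 CPM with DZNep and 1.82 and 2.05 CPM with DMSO. IRX2, which lies in the same cluster on chromosome 5 as IRX4, fell by 0.60 on the log2 scale (SE 0.17, adjusted p = 0.0227). Its levels were 23.9 and 19.5 CPM with DZNep and 39.2 and 27.2 CPM with DMSO, without overlap. So 2 genes of 1 cluster changed in opposite directions.

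The start regions of this opposed pair are both dense in CpG. They are shown as RefSeq gives them in GRCh38.p14, 250 bases before to 50 after the start, 5′ to 3′ on the minus strand, with CG in capitals. The IRX4 window (chr5:1886896-1887195) holds 47 CpG at a GC content of 79.7%, and the IRX2 window (chr5:2751628-2751927) holds 34 CpG at 73.3%.
IRX4: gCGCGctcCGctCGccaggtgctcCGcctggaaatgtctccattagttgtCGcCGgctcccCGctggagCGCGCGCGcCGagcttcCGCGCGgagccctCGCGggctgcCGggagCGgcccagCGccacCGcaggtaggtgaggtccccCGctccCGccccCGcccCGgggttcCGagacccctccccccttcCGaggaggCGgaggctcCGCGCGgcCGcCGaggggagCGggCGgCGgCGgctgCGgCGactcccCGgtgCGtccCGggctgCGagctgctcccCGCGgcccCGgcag
IRX2: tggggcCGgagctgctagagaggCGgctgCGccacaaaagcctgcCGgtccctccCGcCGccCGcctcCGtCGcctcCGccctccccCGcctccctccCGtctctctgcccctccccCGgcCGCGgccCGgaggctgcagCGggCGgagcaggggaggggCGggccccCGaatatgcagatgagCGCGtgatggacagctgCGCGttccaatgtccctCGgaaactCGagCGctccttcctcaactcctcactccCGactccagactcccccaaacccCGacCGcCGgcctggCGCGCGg

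Forkhead genes were the largest family, with 4 of 23 tested members raised, 1 lowered and a median effect of 0.31. FOXQ1, a forkhead gene linked to epithelial plasticity in carcinoma, had 15.5 and 18.1 CPM with DZNep and 7.89 and 4.13 CPM with DMSO. It rose by 1.55 (SE 0.26, adjusted p = 0.00113), with a ratio of 0.97 at 4 Gy and 2.13 at 0 Gy. The raised FOXO genes act below insulin and AKT signalling on cell-cycle arrest and stress defence. FOXO1 had 14.2 and 13.2 CPM with DZNep and 7.57 and 6.31 CPM with DMSO, a rise of 0.99 (SE 0.19, adjusted p = 0.00307). FOXO4 had 4.89 and 5.58 CPM with DZNep and 2.47 and 2.34 CPM with DMSO, a rise of 1.12 (SE 0.27, adjusted p = 0.00994). In both genes the DMSO libraries were close to each other and about a log2 unit below DZNep.

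Of the FOXP group, FOXP1, FOXP2 and FOXP4 act in lung epithelium and FOXP3 in regulatory T cells, and the group split. FOXP3 did not pass (effect 0.44, SE 0.35, adjusted p = 0.402). FOXP1 rose by 0.59 (SE 0.16, adjusted p = 0.0173), with 63.0 and 56.4 CPM with DZNep and 41.3 and 38.0 CPM with DMSO. FOXP4, the most abundant forkhead member per length, fell by 0.48 on the log2 scale (SE 0.15, adjusted p = 0.0332), with 122 and 98.0 CPM with DZNep and 177 and 132 CPM with DMSO. FOXP2, the forkhead factor known for speech circuits, was under the test's floor with the largest relative gain of the group. It had 87 and 213 counts with DZNep (0.765 and 1.65 CPM), against 18 and 6 counts with DMSO (0.160 and 0.0433 CPM). The gain was 2.15 [1.51, 3.08] at 4 Gy and 4.80 [4.10, 6.71] without irradiation, so both intervals lay well above 0.

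In contrast with the IRX and PAX9 windows, the FOXP2 start region that RefSeq lists (GRCh38.p14, chr7:114414565-114414864, plus strand) is poor in CpG, with 1 CpG, in capitals, at a GC content of 38.7%. It holds the GATA letters AGATAAG or their reverse complement CTTATCT, as 2.20% of the 16182 windows of that length do. FOXP2 has several starts, and the data do not say which was used.
FOXP2: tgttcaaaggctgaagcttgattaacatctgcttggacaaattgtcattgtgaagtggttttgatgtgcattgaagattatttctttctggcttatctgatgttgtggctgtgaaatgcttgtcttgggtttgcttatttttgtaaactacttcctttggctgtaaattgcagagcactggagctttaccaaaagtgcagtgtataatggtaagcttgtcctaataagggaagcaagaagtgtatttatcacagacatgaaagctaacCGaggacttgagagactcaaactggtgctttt

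Of the 119 members, 83 had such a window. That is under the 80% needed to compare classes of members, so no comparison of promoter composition between them is given.

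FOXD4 had 103 and 146 counts with DZNep and 52 and 2 counts with DMSO, but near-identical FOXD4L copies elsewhere in the genome make its count uncertain. The pioneer factor FOXA2, an endoderm gene, had 14 and 9 counts with DZNep and 12 and 26 with DMSO. FOXD3, a neural crest factor, had 22 and 9 counts with DZNep and 12 and 22 with DMSO. In both, the intervals at 4 Gy included 0, and those at 0 Gy lay below it (-1.25 [-2.71, -0.29] for FOXA2 and -1.03 [-2.50, -0.02] for FOXD3).

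Distal-less genes pattern limbs, jaws and forebrain, and in the genome they stand in pairs. By edgeR and by DESeq2 none of the 3 tested members passed for DZNep (1 at an unadjusted p under 0.05). All 6 were higher in CPM with DZNep at both doses, as were 59 of all 119 members. At 4 Gy the intervals of DLX1 (0.14 [-0.004, 0.27]) and DLX2 (0.01 [-0.09, 0.12]) included 0. Those of DLX6 included 0 at both doses. The clearest gains were in members too low for the test. DLX3, of skin and tooth, had 53 and 63 counts with DZNep (0.466 and 0.487 CPM), against 11 and 12 counts with DMSO (0.0979 and 0.0867 CPM). On the log2 scale this was 2.08 [1.30, 3.34] at 4 Gy and 2.29 [1.58, 3.52] without irradiation. DLX5, of bone and jaw, had 41 and 47 counts with DZNep (0.360 and 0.363 CPM), against 2 and 4 counts with DMSO (0.0178 and 0.0289 CPM). Its gain was 3.47 [2.39, 7.43] at 4 Gy and 3.07 [2.20, 5.59] without irradiation, and the libraries of each arm were close to each other. The partner of DLX5 on chromosome 7, DLX6, had ratios of 0.62 at 4 Gy and 0.26 at 0 Gy, and the partner of DLX3 on chromosome 17, DLX4, had 0.34 and 1.40. DLX2 is described with radiation.

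The MSX genes, effectors of BMP signalling, were both higher with DZNep in each dose. MSX2 had 29.5 and 27.1 CPM with DZNep and 25.2 and 13.4 CPM with DMSO. It rose by 0.62 (SE 0.20, adjusted p = 0.0431), and its DMSO 0 Gy library was the low one, with a ratio of 0.23 at 4 Gy and 1.02 at 0 Gy. Among the LIM-homeodomain genes, which specify neurons and limb, 1 of 4 tested members rose. LHX9, of gonad and limb, had 6.89 and 5.15 CPM with DZNep and 3.34 and 2.95 CPM with DMSO, a rise of 0.93 (SE 0.25, adjusted p = 0.0190). LHX2, the family's most abundant member, had 5.98 and 7.56 CPM with DZNep and 5.42 and 6.80 CPM with DMSO (effect 0.15, SE 0.22, adjusted p = 0.664). Its DZNep and DMSO libraries interleaved. None of the 5 tested sine oculis genes, factors of eye, muscle and kidney, passed for DZNep by edgeR or DESeq2 (1 at an unadjusted p under 0.05). SIX4, the highest of them by mean CPM with no allowance for length, had 8.13 and 9.29 CPM with DZNep and 6.43 and 7.24 CPM with DMSO (effect 0.35, SE 0.20, adjusted p = 0.240).

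Summed over their members, 8 of the 10 families stood higher with DZNep at both doses. The TBX sum was 85.0 and 62.0 CPM with DZNep (4 Gy, then 0 Gy) and 52.5 and 31.8 CPM with DMSO. The GATA sum was 71.8 and 67.3 CPM with DZNep and 44.2 and 39.4 CPM with DMSO. These families had the largest log2 differences of their sums at 4 Gy (0.70 each), while at 0 Gy TBX (0.96), DLX (0.90) and SOX (0.83) led. Without GATA2 the GATA sum was 4.84 and 4.96 CPM with DZNep and 4.26 and 2.75 CPM with DMSO, and without TBX2 the TBX sum was 52.5 and 38.7 CPM with DZNep and 37.9 and 23.3 CPM with DMSO. The IRX sum was lower with DZNep at both doses, at 34.4 and 30.2 CPM against 43.2 and 32.7 CPM with DMSO, and IRX2 made up most of it. Without IRX2 the sum was 10.5 and 10.8 CPM with DZNep and 4.06 and 5.44 CPM with DMSO. The FOX sum had no single direction, with 606 and 557 CPM with DZNep and 649 and 517 CPM with DMSO. No family sum changed sign between TMM, size factors of the DESeq2 type and plain library totals.

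**Figure D3:**
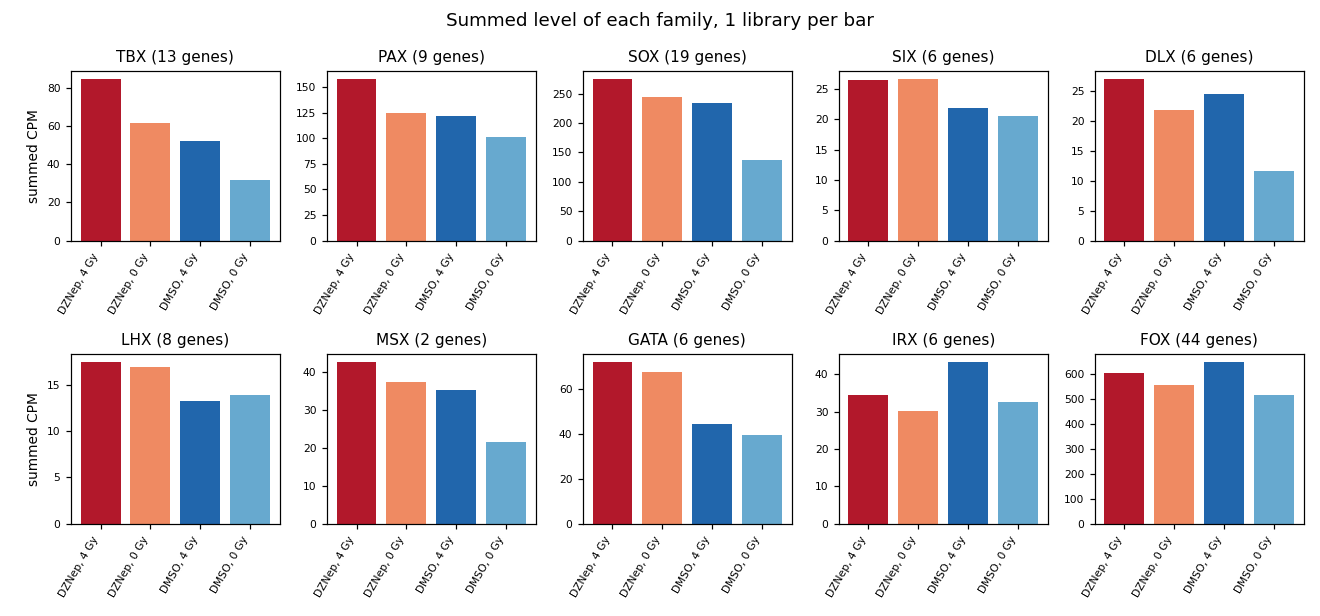
Summed CPM of each family, 1 bar per library, in the order DZNep 4 Gy, DZNep 0 Gy, DMSO 4 Gy and DMSO 0 Gy, each panel with its own scale from 0. There are no error bars, since each bar is 1 library. The TBX bars run from 85.0 CPM in DZNep 4 Gy to 31.8 CPM in DMSO 0 Gy, and the IRX panel is the one with lower bars for DZNep at both doses.

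Silent members were then set beside expressed ones. Members were classed by mean CPM over all 4 libraries: 9 with no count, 29 silent (below 0.1 CPM), 21 low (0.1 to below 1 CPM) and 60 expressed (1 CPM or more). The expressed members were shifted toward DZNep at both doses, and the low members about as much at 4 Gy. Of these 60, 46 were higher with DZNep at 4 Gy and 50 at 0 Gy, where 49.6% and 47.8% of all expressed genes were. Their median log2 ratio was 0.39 at 4 Gy and 0.45 at 0 Gy, against -0.00 and -0.03 over all expressed genes. The low members had medians of 0.42 at 4 Gy and 0.26 at 0 Gy, with 16 and 13 of 21 higher, where 44.4% and 50% of all low genes were.

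In the silent members the median ratio was 0.57 at 4 Gy, over 24 members with a count in the pair, and 0.07 at 0 Gy, over 20, with 14 and 12 of them higher, where 45.3% and 54% of all silent genes were. These medians depend on the prior count of 2. With pairs at or under 3 counts left out and zeros set to 3 counts, they were 0.74 over 16 members at 4 Gy and 0.10 over 11 at 0 Gy, against -0.02 and 0.10 over all silent genes. Silent minus expressed was thus 0.18 at 4 Gy and -0.37 at 0 Gy. A class set by all 4 libraries can miss members that come on with the drug, so classes were also set from the DMSO library of the other dose alone. The silent members then had a median of 0.63 over 30 members at 4 Gy, with 12 up and 5 down by 2-fold, against -0.01 over all silent genes, of which 31.5% were up and 27.5% down. At 0 Gy the median was 0.56 over 19 members, with 7 up and 2 down, against 0.26 over all silent genes, of which 27.9% were up and 16.9% down. Silent minus expressed was 0.26 at 4 Gy and 0.13 at 0 Gy with these classes, so its sign at 0 Gy changed with how silence was defined. The difference between silent and expressed members was not tested.

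Sums over silent members were small under either definition. The 29 silent by the mean of all libraries gave 1.14 CPM in DZNep 4 Gy and 0.711 in DZNep 0 Gy, against 1.04 in DMSO 4 Gy and 0.578 in DMSO 0 Gy. Those silent in the DMSO library of the other dose summed to 4.23 CPM in DZNep 4 Gy against 2.11 in DMSO 4 Gy, and to 1.38 CPM in DZNep 0 Gy against 0.455 in DMSO 0 Gy. The expressed members summed to 1334 and 1178 CPM with DZNep and to 1232 and 921 CPM with DMSO. By the mean of all libraries, the highest silent member reached 0.141 CPM in DZNep 4 Gy (FOXN1) and 0.147 CPM in DZNep 0 Gy (FOXB1), while in DMSO it was GATA4, at 0.249 CPM after 4 Gy and 0.0939 CPM at 0 Gy. Ratios of 2-fold or more in the same direction at both doses were seen in 2 silent members upward (6.14% of all silent genes), 3 low members (8.56% of all low genes) and 5 expressed members (2.66% of all expressed genes). The 2 silent ones, named after their values were seen, were FOXB1, with 15 and 19 counts with DZNep and 5 and 2 with DMSO, and FOXN1, with 16 and 10 counts with DZNep and 4 and 2 with DMSO. The 3 low ones were DLX3, DLX5 and FOXP2, and the 5 expressed ones were TBX2, PAX5, PAX9, IRX3 and IRX4. Downward, 2 silent members (5.38% of all silent genes), 0 low members (9.43% of all low genes) and 0 expressed members (3.12% of all expressed genes) did so. The 2 were FOXE1 and LHX5, neither with over 12 counts in any library.

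Crossing from off to on was rare and stayed low. Of 37 members below 0.1 CPM in both DMSO libraries, 3 reached 0.1 CPM in both DZNep libraries (DLX3, DLX5 and FOXB1), where 2.83% of all such genes did. None of the 37 reached 1 CPM in both, where 0.0917% of all such genes did. In the other direction 0 of 33 members crossed 0.1 CPM, where 2.77% of all such genes did, and 0 of 33 crossed 1 CPM, where 0.0231% did.

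**Figure D4:**
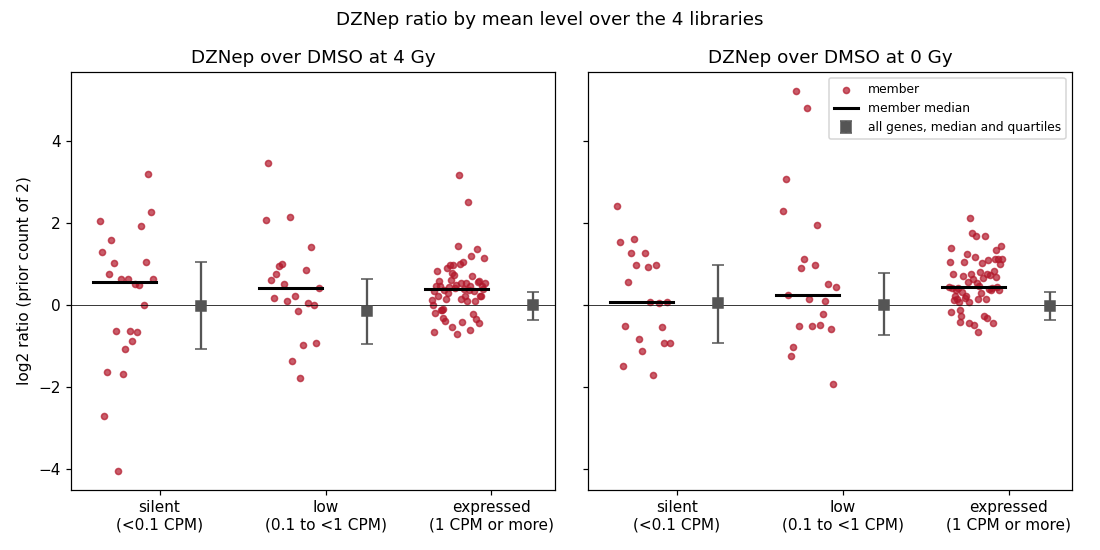
DZNep over DMSO log2 ratio by class of mean level, at 4 Gy (left) and 0 Gy (right), with 1 red point per member, a black bar at the members' median, and a grey square with quartile bars for all genes of the class. The expressed members' median lies at 0.39 and 0.45, while the silent members' median is 0.57 at 4 Gy and 0.07 at 0 Gy with a wide scatter.

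Neighbours of a raised member were not always called with it. Chromosome neighbours were read from RefSeq by name. TBX3 rose while TBX5, its neighbour on chromosome 12, had no count in 3 libraries and 2 counts in DMSO 0 Gy. Beside FOXQ1 on chromosome 6, FOXF2 had DZNep ratios of 0.59 at 4 Gy and 0.37 at 0 Gy, and FOXC1 had -0.18 and 0.40, against 0.97 and 2.13 for FOXQ1.

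Radiation, tested in the same model, raised 3 of the 62 tested members (4.84%), where 2.17% of all tested genes were raised. It lowered none by edgeR or DESeq2, where 0.897% of all tested genes were lowered by edgeR, with 1 member lowered at an unadjusted p under 0.05. The median radiation effect was 0.21 over the members and 0.01 over all tested genes. DLX2, of forebrain and jaw, had 13.4 CPM in DZNep 4 Gy and 8.81 in DZNep 0 Gy, and 13.3 in DMSO 4 Gy and 4.23 in DMSO 0 Gy. It rose by 1.12 after 4 Gy (SE 0.25, adjusted p = 0.0328), with ratios of 0.60 in DZNep and 1.65 in DMSO. The irradiated libraries were level with each other, and the DMSO 0 Gy library was lowest. TBX1, the pharyngeal arch factor of the chromosome 22 deletion region, had 27.2 CPM in DZNep 4 Gy and 12.7 in DZNep 0 Gy, and 19.6 in DMSO 4 Gy and 9.93 in DMSO 0 Gy. It rose by 1.04 (SE 0.18, adjusted p = 0.00973), near 1 log2 unit in each arm (1.10 in DZNep and 0.98 in DMSO), and did not pass for DZNep (effect 0.42, SE 0.18, adjusted p = 0.106). PAX7 rose by 1.004 (SE 0.17, adjusted p = 0.0107), with ratios of 0.85 in DZNep and 1.15 in DMSO, and was the member that passed for both factors.

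Nearest to the threshold among members that did not pass were PAX3, SOX9 and TBX2. PAX3, a neural crest and muscle factor, had 21.1 and 11.2 CPM with DZNep (4 Gy, then 0 Gy) against 19.6 and 13.4 CPM with DMSO. Radiation ratios of PAX3 were 0.92 in DZNep and 0.55 in DMSO (effect 0.74, SE 0.18, adjusted p = 0.0511), and DZNep 0 Gy was the lowest library, while in SOX9 and TBX2 it was DMSO 0 Gy. SOX9 had radiation ratios of 0.30 in DZNep and 1.20 in DMSO (effect 0.75, SE 0.20, adjusted p = 0.0588). TBX2 had 0.48 in DZNep and 0.78 in DMSO (effect 0.63, SE 0.18, adjusted p = 0.0684). IRX4 went the other way, with -0.59 in DZNep and -2.07 in DMSO (effect -1.26, SE 0.43, adjusted p = 0.118). With DESeq2, PAX3, SOX9 and TBX2 passed too (adjusted p of 0.0213 for PAX3, 0.0190 for SOX9 and 0.0482 for TBX2). So 6 members were raised, where 3.34% of all tested genes were. With the drug left out of the edgeR model 0 members were raised, and so were 0 of all 13378 tested genes.

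**Figure D5:**
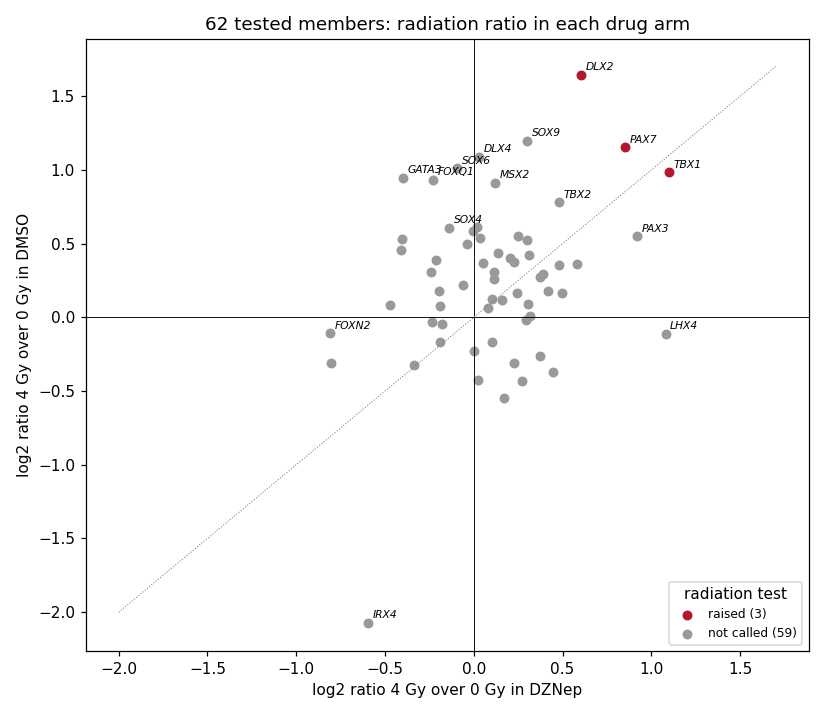
Radiation log2 ratio (4 Gy over 0 Gy) of the 62 tested members in DZNep (horizontal) and in DMSO (vertical), 1 point per gene, with the dotted line marking equal ratios. The 3 raised members are DLX2, PAX7 and TBX1; TBX1 lies near the line, and DLX2 lies above it, with 0.60 in DZNep and 1.65 in DMSO.

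Exons of 8 of the 23 members called for either factor overlap those of another gene in GENCODE v29, as do those of 38 of all 119. Strand use in counting is not given in the sources used here, so reads of overlapping genes cannot be told apart. For TBX1 the partner is GNB1L, counted apart with a radiation effect of 0.09 (adjusted p = 0.894).

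Other developmental transcription factors, a list of 118 genes such as GLI, HAND, NKX and RUNX members, had 9 of 40 tested members raised by DZNep (22.5%, against 10.8% of all tested genes) and 3 lowered (7.5%, against 12.3%), with a median effect of 0.14. Raised ones included GBX2 (log2 effect 0.98), GLI3 (0.73), HEY1 (1.60), ISL2 (1.05), PROX1 (2.37), RUNX2 (1.15), SNAI1 (0.99) and SNAI2 (0.82). The lowered ones were ONECUT1 (-1.77), PBX3 (-0.91) and VAX2 (-3.63). PROX1 reached 1 CPM in the DZNep libraries alone, and ONECUT1 and VAX2 in the DMSO libraries alone. PROX1, ONECUT1 and VAX2 thus had to differ between the arms to be tested. Among 29 Polycomb subunits, 28 were tested and 4 were raised by DZNep (14.3%, against 10.8% of all tested genes). These were JARID2 (0.76), BMI1 (0.78), CBX2 (0.57) and CBX6 (0.56). None of the subunits was lowered, where 12.3% of all tested genes were. The count at an unadjusted p under 0.05 was 4 lowered subunits by edgeR and 3 by DESeq2. EZH2, the methylating subunit, had 48.4 and 53.8 CPM with DZNep and 48.9 and 76.4 CPM with DMSO (effect -0.26, SE 0.17, adjusted p = 0.293). Radiation called no gene of either list by edgeR, where 2.17% of all tested genes were raised and 0.897% lowered. At an unadjusted p under 0.05 it raised 8 and lowered 2 of the other factors, and raised 1 and lowered 7 of the subunits. By DESeq2 it raised 1 of the other factors, where 3.34% of all tested genes were raised.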

How the data were processed

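Per the labels' protocols, Trizol was used for the RNA and a Lexogen SENSE kit, which selects mRNA, for the libraries. The deposited values are raw counts for each gene symbol, with 1 table per library. TopHat, edgeR and the hg19 build are named in the submitters' processing notes without versions or roles. How reads were assigned to genes (program, gene models, strand) is not given in the sources used here. Of the counts from 1 to 59 in a library, 55.9% to 58.1% were even, so mates of a pair may have been counted separately.

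From the counts, CPM with TMM factors (0.979 to 1.01) and log2 ratios with a prior count of 2 were computed. The test was edgeR 4.0.16 (R 4.3.3), glmQLFit and glmQLFTest, on drug plus dose over the 4 libraries, for genes at 1 CPM or more in at least 2 libraries, with Benjamini-Hochberg adjustment at 0.05. It had 1 residual degree of freedom and a biological coefficient of variation of 0.163. Nothing shows that the libraries come from separate cultures, so p-values reflect only their spread, which may be technical. Brackets are exact conditional binomial 95% intervals. CPM per kb used merged GENCODE v29 exons. The fit was checked on simulated data. DESeq2 1.42.0, other scalings, other filters and left-out factors or libraries were tried as alternatives. Members, lists and rules were chosen with earlier results of these data known. Genes named are all members past the test, the highest of each family by mean CPM, and untested members of at least 20 counts with the most extreme ratios or with 2-fold ratios at both doses. Other genes were named after their values were seen. Results for some genes are not reported here.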

Additional observations from a re-analysis of the deposited data

Results flagged for a closer look

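In 8 tested members the DZNep ratio had opposite signs at 4 Gy and at 0 Gy, with both counting intervals clear of 0. The share of all tested genes that meet the same rule was not counted, so the pattern is not shown to be particular to the members. The difference between doses was not tested, since each ratio compares 2 libraries. As the ratio at 4 Gy minus that at 0 Gy, on the log2 scale, it was 1.19 for LHX4 (0.53 at 4 Gy and -0.66 at 0 Gy) and 0.37 for PAX3 (0.11 and -0.26). It was -1.11 for SOX6 (-0.43 at 4 Gy and 0.68 at 0 Gy), -0.87 for LHX6 (-0.41 and 0.46) and -0.70 for FOXN2 (-0.38 and 0.32). It was -0.59 for FOXC1 (-0.18 at 4 Gy and 0.40 at 0 Gy), -0.55 for FOXJ3 (-0.13 and 0.42) and -0.20 for FOXK1 (-0.12 and 0.08). None of the 8 passed the additive test for DZNep.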

How the results depend on the processing

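Members raised by DZNep numbered 19 by edgeR with TMM, 19 with RLE factors, 19 with plain library sizes, 18 with DESeq2 and 18 with no filter on low counts. They were 12 of 32 tested at 10 CPM, where fewer members enter, and 5 with dose left out of the model. With 1 library and dose left out, an alternative chosen after seeing the data, they ran from 0 to 9. Members lowered by DZNep numbered 2, 3 at 10 CPM with FOXA1 added, 1 with no filter, and 0 with dose left out, with or without 1 library. With no filter the adjusted p of FOXP4, MSX2, SOX9 and TBX18 for DZNep, and of DLX2 for radiation, passed 0.05, so these calls were lost, while DLX5 and FOXP2, which the filter keeps out, were newly raised. Members raised by radiation numbered 3, 6 with DESeq2, 5 with RLE factors, 5 with plain library sizes, 7 at 10 CPM and 2 with no filter. Of all tested genes, 2.17%, 3.34%, 3.04%, 2.72%, 7.38% and 0.606% were raised in these settings. With the drug left out 0 members were raised by radiation, and so were 0 of all 13378 tested genes. Members lowered by radiation were 0 in each of these settings, where 0% to 5.51% of all tested genes were lowered. Silent minus expressed at 0 Gy was -0.37, -0.94 without the FOX family, 0.13 with classes from DMSO 4 Gy, and -0.36 to -0.34 under other class bounds, per kb or a prior count of 0.5. At 4 Gy it was 0.18, 0.08 without FOX, 0.26 with classes from DMSO 0 Gy, 0.25 per kb, 0.29 with a prior count of 0.5 and 0.39 with silent below 0.05 CPM and expressed from 5 CPM. For changes made by leaving out a factor or the FOX family the cause was not tested. No paired analysis was possible because each group is 1 library, so no replicate number links samples; the drug test already compares DZNep with DMSO within each dose. A silent member needed 3 counts to be told from 0.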
